A study of Mus musculus with 12 samples.

Results

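A set of 9 genes named for the patterning of the dorsal forebrain was described across the 4 groups of a study of embryonic mouse neocortex: Pax6, Emx1, Emx2, Lhx2, Nr2f1, Sp8, Dmrta2, Tcf4 and Apcdd1. They were taken by name, 9 of 23352 gene rows, and each name matched 1 row. The tissue was microdissected neocortex at embryonic day 16, profiled by RNA sequencing of total RNA in 12 libraries. The 4 groups were neocortex labelled homozygous Nfia knockout (4 libraries) with wild type of the same strain, Nfia{tm1Rmg}(C57BL/6) (2 libraries), and homozygous Nfib knockout (4 libraries) with wild type of the strain Nfib{tm1Rmg}(C57BL/6) (2 libraries). Nfia and Nfib encode nuclear factor I proteins, transcription factors of neural progenitors and glia. The labels do not say whether the libraries came from separate embryos, nor which cells lost the gene beyond the word homozygous.

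The cortical primordium is divided into areas by transcription factors that progenitors express in gradients. Pax6, a paired-box homeodomain factor, is high rostrolaterally, and the homeodomain factor Emx2 is high caudomedially; Sp8 (zinc finger, rostral) and Nr2f1 (the nuclear receptor COUP-TFI, caudal) form another opposed pair. Lhx2, a LIM-homeodomain factor, keeps cortical fate and limits the hem, the signalling centre at the dorsal midline. Emx1, the close relative of Emx2, marks the dorsal telencephalon, and the DM-domain factor Dmrta2 (also called Dmrt5) is high caudomedially. Tcf4 here is the basic helix-loop-helix E protein E2-2, which pairs with proneural factors, and not the Wnt effector Tcf7l2 that shares its alias. Apcdd1 is no transcription factor: it encodes a membrane glycoprotein that inhibits Wnt signalling and is itself induced by it.

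The values are FPKM, fragments scaled to transcript length and to all mapped fragments, and the authors gave 1 average for each group. Single libraries have no value of their own here, so their spread cannot be shown, and sequencing depth is unknown. Fold changes, p-values and q-values (p adjusted over all genes tested) are those of the authors' deposited table, and a gene counts as called at a q under 0.05. An approximate error of each fold was computed from its deposited p, as the fold divided by the normal deviate of that p and not below that of genes at a like level. In bulk tissue, fewer cells of a type and less RNA per cell cannot be told apart.

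The targeted genes checked the labels. Nfib stood at 9.12 FPKM in the Nfib knockouts, against 134 in their wild types (q = 0.00207 in the authors' deposited table). Nfia stood at 28.2 FPKM in the group labelled Nfia knockout, against 33.7 in its wild types, a log2 fold of -0.27 with q = 0.477 by the authors' deposited table. The transcript level thus did not bear out that label, and which exons the allele removes is not in the labels, so labelled Nfia knockout is the name kept here, and every direction drawn from this group carries that doubt. Nfix, another gene of the family, was at 108 FPKM in the labelled Nfia knockouts, against 165 in their wild types (q = 0.00286), and at 144 in the Nfib knockouts, against 163 in theirs (q = 0.853), with q from the authors' deposited table. Nfia rose in the Nfib knockouts to 54.4 FPKM, against 24.3 in their wild types (log2 fold 1.18 with q = 0.00207 in the authors' deposited table). Nfib was at 142 FPKM in the labelled Nfia knockouts, against 190 in their wild types (q = 0.117 in the authors' deposited table). Neurod6, a marker of cortical excitatory neurons, was at 493 FPKM in the group labelled Nfia knockout, 537 in its wild types, 550.0 in the Nfib knockouts and 424 in theirs, so a defining marker of the tissue was abundant in all 4 groups.

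Of the 9 genes, Lhx2 fell and Apcdd1 rose in both comparisons, and Pax6 rose in the Nfib knockouts. Emx1, Emx2, Nr2f1, Sp8, Dmrta2 and Tcf4 passed the threshold in neither. In the labelled Nfia knockout comparison 2 of 9 genes were called, 1 higher and 1 lower, where 3.79% of all 13736 genes tested were called, 2.69% higher and 1.1% lower. In the Nfib comparison 3 of 9 were called, 2 higher and 1 lower, where 5.39% of all 13729 genes tested were called, 2.13% higher and 3.26% lower. The median log2 fold of the 9 genes was -0.14 in the labelled Nfia knockout comparison, against -0.0091 over all tested genes at 1 FPKM or more. In the Nfib comparison it was 0.051, against 0.0012 over all such genes. All 9 genes had at least 1 FPKM in every group and all were tested in both comparisons.

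**Figure D1:**
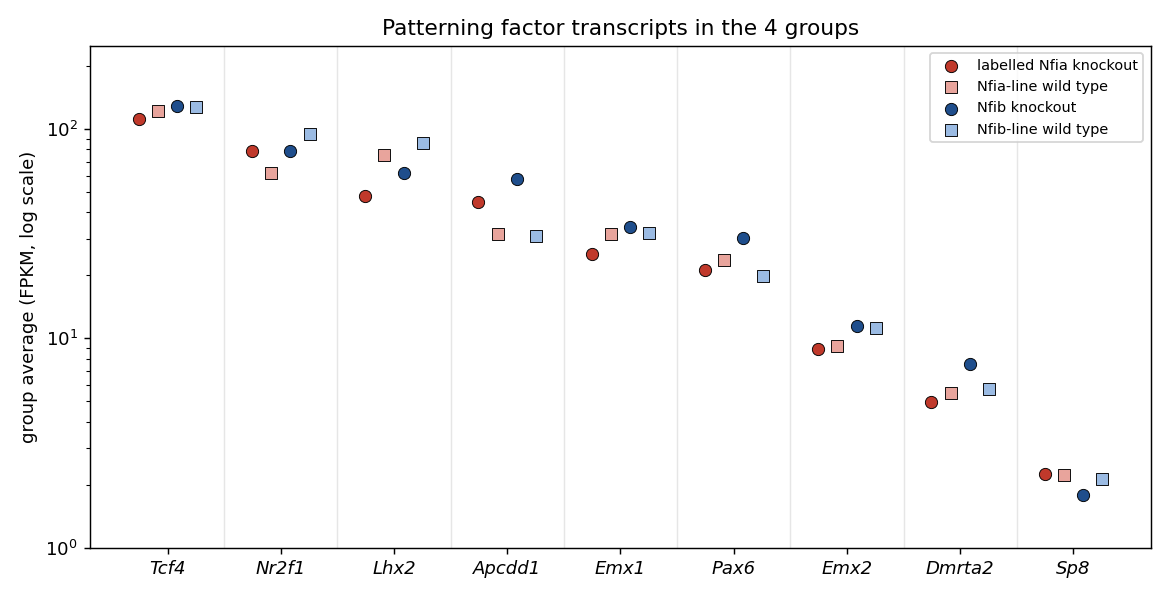
Group averages of the 9 genes in FPKM on a log axis, with circles for knockouts and squares for wild types, 1 point per group and no error available. Both circles lie below both squares for Lhx2 and above both squares for Apcdd1, and the genes span 2.09 (Sp8) to 122 FPKM (Tcf4) as means of the 4 groups.

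Lhx2 was at 48.1 FPKM in the group labelled Nfia knockout, against 75.0 in its wild types. The Nfib knockouts had 62.1 FPKM of Lhx2, against 86.3 in their wild types. Both knockout averages were thus below both wild-type averages. The authors' deposited table gives log2 folds of -0.65 (q = 0.00286, approximate error 0.16, an upper limit because the p stands at the smallest value in the table) and -0.46 (q = 0.0357, approximate error 0.15). Only 0.712% of genes at 1 FPKM or more had a lower fold in the labelled Nfia knockout comparison, and 6.36% did in the Nfib comparison. The folds of the 2 lines differed by 0.19 (95% interval -0.23 to 0.62, adjusted p = 0.908 by the approximate test over all genes, built on the authors' p-values), so neither a difference nor its absence was shown. Of 13559 genes tested in both comparisons, 0.384% were called lower in both, Lhx2 among them. Set against the wild types of the other line, the log2 folds of group averages were -0.84 for the labelled Nfia knockouts and -0.27 for the Nfib knockouts, both below 0. At a q under 0.01, or with a fold of at least 1.5 asked as well, Lhx2 was called in the labelled Nfia knockout comparison only.

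The DNA before an annotated start of Lhx2 and of Pax6 is shown because these are the called genes that the promoter table holds. They are 250 bases each from the plus strand of GRCm38.p6, RefSeq, with any TTGGC core of the nuclear factor I site, on either strand, in capitals (GCCAA where it lies on the minus strand). The Lhx2 window is chr2:38339031-38339280 and the Pax6 window chr2:105668646-105668895.
Lhx2: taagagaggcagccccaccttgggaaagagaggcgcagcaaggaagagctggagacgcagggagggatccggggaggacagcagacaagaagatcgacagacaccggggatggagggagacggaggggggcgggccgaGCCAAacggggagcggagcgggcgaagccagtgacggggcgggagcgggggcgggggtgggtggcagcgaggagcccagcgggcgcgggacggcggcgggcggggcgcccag
Pax6: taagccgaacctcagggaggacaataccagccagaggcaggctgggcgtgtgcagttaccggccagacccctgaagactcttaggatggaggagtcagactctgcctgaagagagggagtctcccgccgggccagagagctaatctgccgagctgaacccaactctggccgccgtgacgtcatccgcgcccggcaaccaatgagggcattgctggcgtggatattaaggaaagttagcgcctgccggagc
The Lhx2 window held 1 TTGGC core, 112 bases before the start and on the minus strand, and the Pax6 window held none.

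RefSeq held 12 windows for 7 of the 9 genes, each running from 250 bases before to 50 after a start. The full palindrome, TTGGC, 5 bases, then GCCAA, was in 0 of the 12 and in 0.0365% of all 32851 windows. The longer core TTGGCA, on either strand, was in 1 of the 12, a window of Sp8, and in 14.1% of all windows. The bare TTGGC, which those matches contain, was in 4 of the 12, of Lhx2, Dmrta2 and Sp8, and in 46.7% of all windows. The Sp8 match is shown as the only TTGGCA among them, in capitals on the minus strand (TGCCAA as printed on the plus strand), 17 bases before the start, in chr12:118846279-118846328 of GRCm38.p6.
Sp8: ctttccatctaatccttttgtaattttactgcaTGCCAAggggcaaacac
These are matches of letters in short windows, and nothing on binding was measured here.

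LIM-homeodomain factors such as Lhx2 act together with the adaptor Ldb1. Of 10 genes of LIM cofactors tested, 1 was higher and none lower in the labelled Nfia knockout comparison, and none was higher and 2 lower in the Nfib comparison. Their median log2 folds were -0.057 and -0.13, and against the other line's wild types -0.095 and 0.028. Ldb1 was at 104 FPKM in the group labelled Nfia knockout, against 115 in its wild types, and at 116 in the Nfib knockouts, against 111 in theirs, passing in neither (q = 0.893 and 0.987 in the authors' deposited table). Lmo3 rose in the labelled Nfia knockouts (log2 fold 0.47 with q = 0.0134 in the authors' deposited table). Lmo4 fell in the Nfib knockouts, at 42.1 FPKM against 78.6 in their wild types (log2 fold -0.88 with q = 0.00207 in the authors' deposited table). Ssbp2 fell in the same group, at 22.9 FPKM against 38.2 (log2 fold -0.72 with q = 0.00207 in the authors' deposited table). Against the other line's wild types Lmo3 came to 0.19, Lmo4 to -0.42 and Ssbp2 to -0.64. The ratio of Lhx2 to Ldb1 FPKM was 0.462 in the labelled Nfia knockouts, against 0.654 in their wild types, and 0.536 in the Nfib knockouts, against 0.775 in theirs.

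Apcdd1 moved the other way. It was at 44.9 FPKM in the group labelled Nfia knockout, against 31.5 in its wild types, and at 57.9 FPKM in the Nfib knockouts, against 30.9 in theirs. The wild-type averages lay close together, at a log2 fold of -0.028 for the Nfib line over the Nfia line, and both knockout averages lay above both. The authors' deposited table gives log2 folds of 0.50 (q = 0.0134, approximate error 0.14) and 0.93 (q = 0.00207, approximate error 0.23, an upper limit for the same reason). They came to 0.54 and 0.87 against the other line's wild types. The Nfib fold exceeded that of 99.4% of genes at 1 FPKM or more. The difference between the lines was 0.43 (95% interval -0.096 to 0.95, adjusted p = 0.605 by the approximate test over all genes, built on the authors' p-values). Of the 13559 genes tested in both comparisons, 0.17% were called higher in both.

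Counting genes at 1 FPKM or more in any group, 32.2% had both knockout averages on the same side of both wild-type averages, as Lhx2 and Apcdd1, 2 of the 9, did. That ordering of 4 averages was therefore common, and the calls above rest on the deposited q-values.

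As Apcdd1 belongs to the Wnt pathway, other targets and feedback genes of that pathway were read beside it. Of 11 tested in the labelled Nfia knockout comparison none was called, and of 12 in the Nfib comparison 3 were higher and 3 lower, with median log2 folds of 0.10 and -0.21, which against the other line's wild types came to -0.15 and 0.18. Axin2, a general feedback target of Wnt signalling, was at 4.83 FPKM in the labelled Nfia knockouts, against 4.37 in their wild types, and at 5.45 in the Nfib knockouts, against 6.29 in theirs (q = 0.990 and 0.843 in the authors' deposited table). The secreted inhibitor Sfrp1 rose in the Nfib knockouts to 63.9 FPKM, against 33.8 in their wild types (log2 fold 0.94 with q = 0.00207 in the authors' deposited table). Tcf7l1, a DNA-binding factor of the Wnt pathway, rose there too, to 6.03 FPKM, against 3.24 (log2 fold 0.92 with q = 0.00207 in the authors' deposited table). The receptor Lgr4 and the secreted Dkk3 fell in that group, with log2 folds of -1.17 and -1.06 (q = 0.00207 each) by the authors' deposited table. Against the Nfia-line wild types Sfrp1 came to 0.49, Tcf7l1 to 0.84, Lgr4 to -0.50 and Dkk3 to -0.22. Apcdd1 is also known from brain endothelium. Of 7 endothelial markers none was called in the labelled Nfia knockout comparison, and 1, Cldn5, was lower in the Nfib comparison. Their summed level was 48.5 FPKM in the labelled Nfia knockouts, 47.7 in their wild types, 48.0 in the Nfib knockouts and 56.4 in theirs, with no marker at 0 in any group. Cldn5 alone was at 19.8 FPKM in the Nfib knockouts, against 29.2 in their wild types, a wider gap than that of the sum. The median log2 fold of the list was 0.069 in each comparison, and -0.051 and 0.17 against the other line's wild types. The part of endothelial cells in the Apcdd1 values was not tested.

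Pax6 was at 30.4 FPKM in the Nfib knockouts, against 19.9 in their wild types. The group labelled Nfia knockout had 21.1 FPKM, against 23.6 in its wild types. The Nfib knockout average was the highest of the 4, and the other 3 groups lay between 19.9 and 23.6. The authors' deposited table gives a log2 fold of 0.63 for the Nfib comparison (q = 0.00385, approximate error 0.16), and for the labelled Nfia knockout comparison -0.17 (q = 0.878, approximate error 0.14). Pax6 was the only gene of the 9 whose folds differed between the lines by the approximate test over all genes that is built on the authors' p-values, with a difference of 0.81 (95% interval 0.38 to 1.23, adjusted p = 0.00898), where 3.76% of 13554 genes were called. Set directly against each other, the Nfib knockout average was higher than that of the labelled Nfia knockouts by 0.52 on the log2 scale, and the Nfib-line wild types were lower than the Nfia-line wild types (log2 fold -0.25). Against the Nfia-line wild types the Nfib knockout fold was 0.36, smaller than the deposited fold by over 1.5 times, and against the Nfib-line wild types the labelled Nfia knockout fold was 0.090, on the other side of 0.

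Pax6 and Emx2, whose gradients run in opposite directions, had ratios of FPKM of 2.38 in the labelled Nfia knockouts, against 2.57 in their wild types, and 2.66 in the Nfib knockouts, against 1.78 in theirs. Pax6 overlaps the antisense transcript Pax6os1, and strand use in counting is not given in the sources used here. Pax6os1 was at 0.254 and 0.343 FPKM in the labelled Nfia and Nfib knockouts, against 0.202 and 0.207 in their wild types, and was tested in neither comparison. Choroid plexus markers differed in the same group as Pax6. Of 8 tested in the Nfib comparison 5 were higher and none lower, and their summed level was 102.7 FPKM in the Nfib knockouts, against 3.77 in their wild types, of which Ttr gave 94.8 against 0.346. In the labelled Nfia knockout comparison 1 of 3 was higher and none lower, with sums of 3.61 FPKM in the knockouts, against 2.63 in their wild types. Folr1, also of that list, was listed at 0 in the Nfib-line wild types. The part of this tissue in the Pax6 result was not tested.

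**Figure D2:**
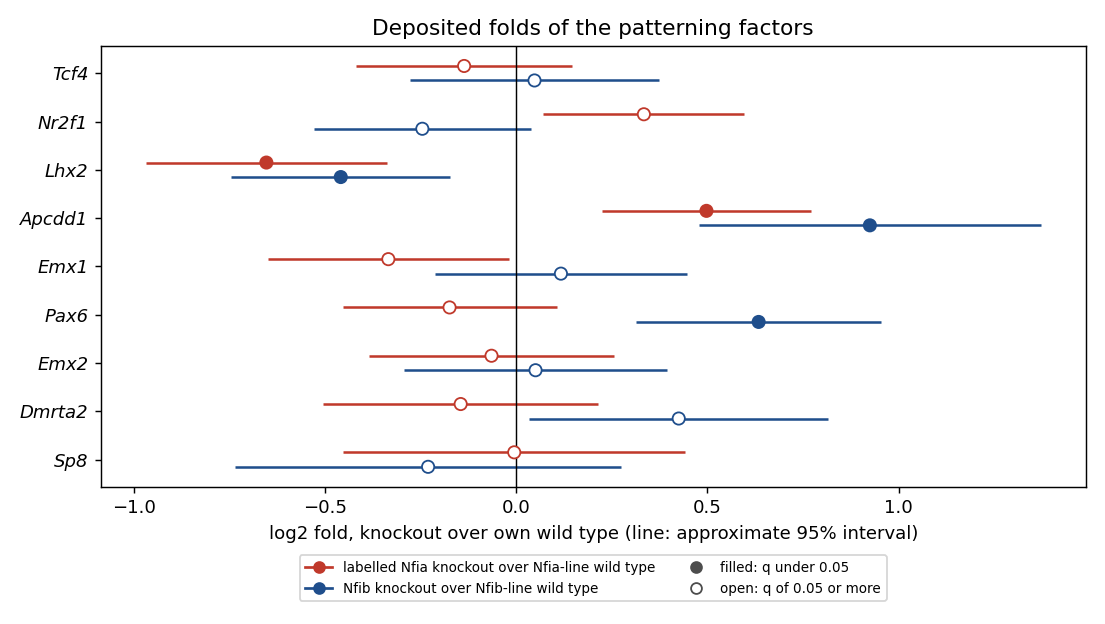
Deposited log2 folds of knockout over own wild type for the 9 genes, ordered by level, with lines for approximate 95% intervals from the deposited p-values and filled points for a q under 0.05. Lhx2 (-0.65 and -0.46) and Apcdd1 (0.50 and 0.93) are filled in both comparisons and Pax6 (0.63) in the Nfib comparison only, with the open Pax6 point of the labelled Nfia knockouts at -0.17.

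Nr2f1 passed in neither comparison, and its wild types differed by more than either knockout did from its own wild type. It was at 78.5 FPKM in the group labelled Nfia knockout, against 61.8 in its wild types, and at 79.1 FPKM in the Nfib knockouts, against 95.3 in theirs. Both knockout averages thus lay between the wild-type averages. The authors' deposited table gives log2 folds of 0.33 (p = 0.0129, q = 0.202) and -0.25 (p = 0.0906, q = 0.511), and their difference of -0.58 (95% interval -0.97 to -0.19) had an adjusted p of 0.0758 by the approximate test. The Nfib-line wild types exceeded the Nfia-line wild types 1.54-fold, a log2 fold of 0.62. Nr2f1 was the only gene of the 9 with a ratio of 1.5 or more between the wild types, where 3.99% of 12420 genes at 1 FPKM or more had one. No test of the wild types was possible. Against the other line's wild types both Nr2f1 folds changed sign, to -0.28 for the labelled Nfia knockouts and 0.36 for the Nfib knockouts. Its antisense neighbour A830082K12Rik stood at 6.08 FPKM in the labelled Nfia knockouts, against 4.74 in their wild types, and at 6.00 in the Nfib knockouts, against 7.30 in theirs, and the counting cannot tell reads of this pair apart if strand was not used.

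Its relative Nr2f2 (COUP-TFII), which is higher in caudal and ventral forebrain, likewise had its lowest level in the Nfia-line wild types and its highest in the Nfib-line wild types. Nr2f2 rose to 15.0 FPKM in the labelled Nfia knockouts, against 6.22 in their wild types, and fell to 6.57 FPKM in the Nfib knockouts, against 23.0 in theirs. The log2 folds were 1.26 (q = 0.00286) and -1.78 (q = 0.00207) by the authors' deposited table, and the difference between them was -3.04 (adjusted p = 1.14e-05 by the approximate test). Against the other line's wild types the Nr2f2 folds were -0.62 and 0.077, so both signs turned. Genes of ventral forebrain progenitors were read beside it. Of 13 tested, 6 were higher and none lower in the labelled Nfia knockout comparison, and none was higher and 8 lower in the Nfib comparison, with summed levels of 120.5 FPKM in the labelled Nfia knockouts, against 83.4 in their wild types, and 71.1 in the Nfib knockouts, against 119 in theirs. Their sum was thus lowest in the Nfib knockouts. It was nearly the same in the labelled Nfia knockouts and the Nfib-line wild types, 120.5 against 119 FPKM with no error available. None of these markers was at 0. Their median log2 folds were 0.82 and -1.01 against own wild types, and -0.011 and -0.64 against the other line's. Their part in the Nr2f1 and Nr2f2 values was not tested.

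**Figure D3:**
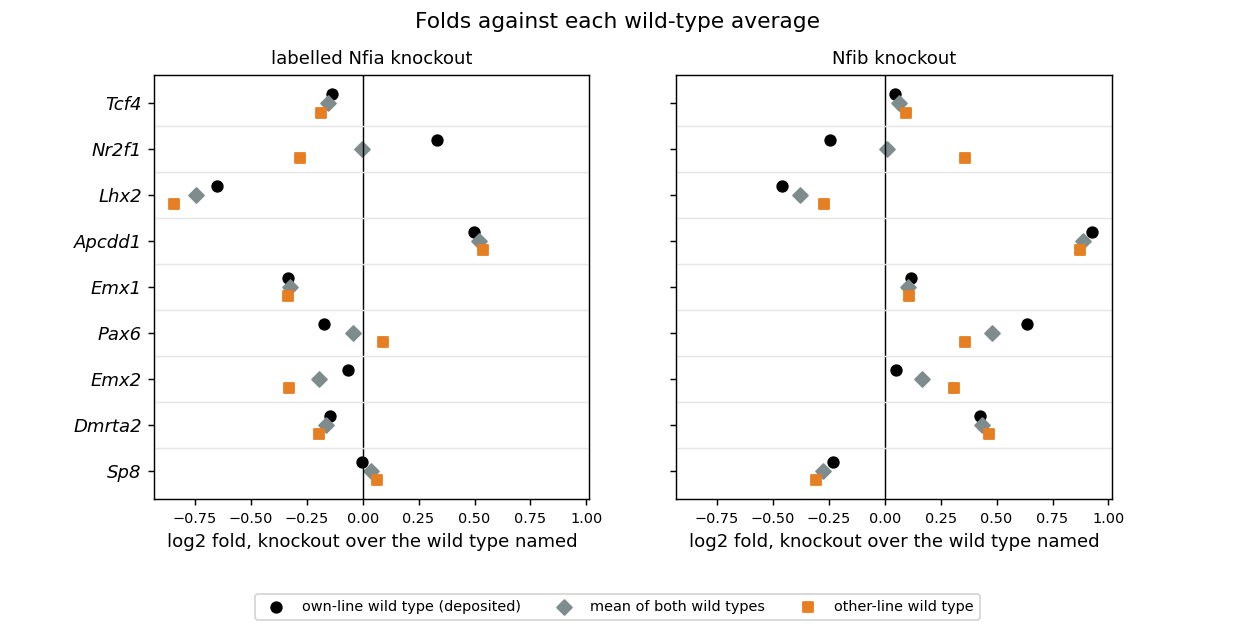
Log2 folds of the 9 genes in the labelled Nfia knockouts (left) and the Nfib knockouts (right) against their own wild type (circles, deposited), the mean of both wild types (diamonds) and the other line's wild type (squares), the last 2 from group averages with 0.1 FPKM added. Lhx2 and Apcdd1 keep their sign in all, as do Emx1, Emx2, Dmrta2 and Tcf4, which were not called. The Nr2f1 points lie at 0.33 (own) and -0.28 (other line) in the left panel and at -0.25 (own) and 0.36 (other line) in the right.

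The homeodomain pair Emx1 and Emx2 passed in neither comparison. Emx1 was at 25.2 FPKM in the labelled Nfia knockouts, against 31.5 in their wild types, and at 33.99 in the Nfib knockouts, against 31.7 in theirs. For it the authors' deposited table gives log2 folds of -0.33 (p = 0.0380, q = 0.424) and 0.12 (q = 0.960). Emx2 was at 8.87 FPKM in the labelled Nfia knockouts, against 9.20 in their wild types, and at 11.4 in the Nfib knockouts, against 11.2 in theirs, so that the averages went with the line more than with the genotype. Its log2 folds were -0.064 (q = 0.999, 95% interval -0.39 to 0.26) and 0.051 (q = 0.998, 95% interval -0.29 to 0.39), folds and q from the authors' deposited table. Emx1 exceeded Emx2 in FPKM 2.84-fold in the labelled Nfia knockouts, against 3.43-fold in their wild types, and 2.97-fold in the Nfib knockouts, against 2.84-fold in theirs. Emx2os, antisense to Emx2, was between 0.693 and 1.01 FPKM in the 4 groups and passed in neither comparison. Of 4 tested genes from a list of antisense or neighbouring transcripts of the 9 genes, none was called in either comparison. Of the transcripts that overlap the 9 genes in annotation, only Emx2os and A830082K12Rik were tested. Gm27197 and Gm13584, antisense to Lhx2, were not found by name in the data.

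Dmrta2 was at 4.98 FPKM in the labelled Nfia knockouts, against 5.46 in their wild types, and at 7.57 in the Nfib knockouts, against 5.71 in theirs. It was highest in the Nfib knockouts, as were Pax6, Apcdd1, Emx1, Emx2 and Tcf4. Its log2 fold there, 0.43 in the authors' deposited table, did not pass (p = 0.026, q = 0.247), and the other fold was -0.15 (q = 0.988). The difference of 0.57 (95% interval 0.040 to 1.10) had an adjusted p of 0.329 by the approximate test. Its family members Dmrt3 and Dmrta1 were lower in level. Dmrta1 rose to 1.91 FPKM in the Nfib knockouts, against 0.321 in their wild types (log2 fold 2.60 with q = 0.00207 in the authors' deposited table), and was at 0.927 in the labelled Nfia knockouts, against 0.549 in theirs (q = 0.129). Against the Nfia-line wild types the Dmrta1 fold in the Nfib knockouts came to 1.63. Dmrt3 passed in neither (q = 0.513 and 0.935 in the authors' deposited table).

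Sp8, the lowest of the 9, was at 2.24 FPKM in the labelled Nfia knockouts, against 2.22 in their wild types, and at 1.78 in the Nfib knockouts, against 2.13 in theirs. For it the authors' deposited table gives log2 folds of -0.0050 (q = 0.999) and -0.23 (q = 0.885), with 95% intervals of -0.45 to 0.44 and -0.73 to 0.27. At this level the intervals are wide, and folds of that size were not detectable. The ratio of Nr2f1 to Sp8, the caudal and rostral factors, was 35.1 in the labelled Nfia knockouts, against 27.8 in their wild types, and 44.4 in the Nfib knockouts, against 44.7 in theirs. Sp9, the zinc-finger relative that ventral progenitors use together with Sp8, fell to 4.81 FPKM in the Nfib knockouts, against 8.25 in their wild types (log2 fold -0.75 with q = 0.00676 in the authors' deposited table). Against the Nfia-line wild types the Sp9 fold came to -0.31.

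Tcf4 was the most abundant and the least variable of the 9. It stood at 112 FPKM in the labelled Nfia knockouts, against 122 in their wild types, and at 129.7 in the Nfib knockouts, against 127 in theirs. The highest group was 1.16 times the lowest, against 1.26 to 1.87 times for the other 8 genes. The authors' deposited table gives log2 folds of -0.14 (q = 0.958) and 0.048 (q = 0.998), with 95% intervals of -0.42 to 0.15 and -0.28 to 0.37. The other E-protein genes, Tcf3 and Tcf12, passed in neither comparison. Partners of E proteins, and the proteins that sequester them, were read beside Tcf4. Of 14 such genes tested, none was called in the labelled Nfia knockout comparison, and 4 were higher and 5 lower in the Nfib comparison. Their median log2 folds were -0.11 and -0.19, and against the other line's wild types -0.47 and 0.0062. The proneural Neurog1 rose in the Nfib knockouts to 3.11 FPKM, against 0.977 in their wild types. Id3, of the ID proteins that sequester E proteins, fell to 5.06 FPKM, against 13.6 (q = 0.00207 for both in the authors' deposited table), and was at 5.48 FPKM in the Nfia-line wild types. Olig1 and Olig2, factors of oligodendrocyte precursors, fell as well, with log2 folds of -1.19 and -1.14 (q = 0.00207 each) by the authors' deposited table. Against the Nfia-line wild types they came to -0.62 and -0.64.

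**Figure D4:**
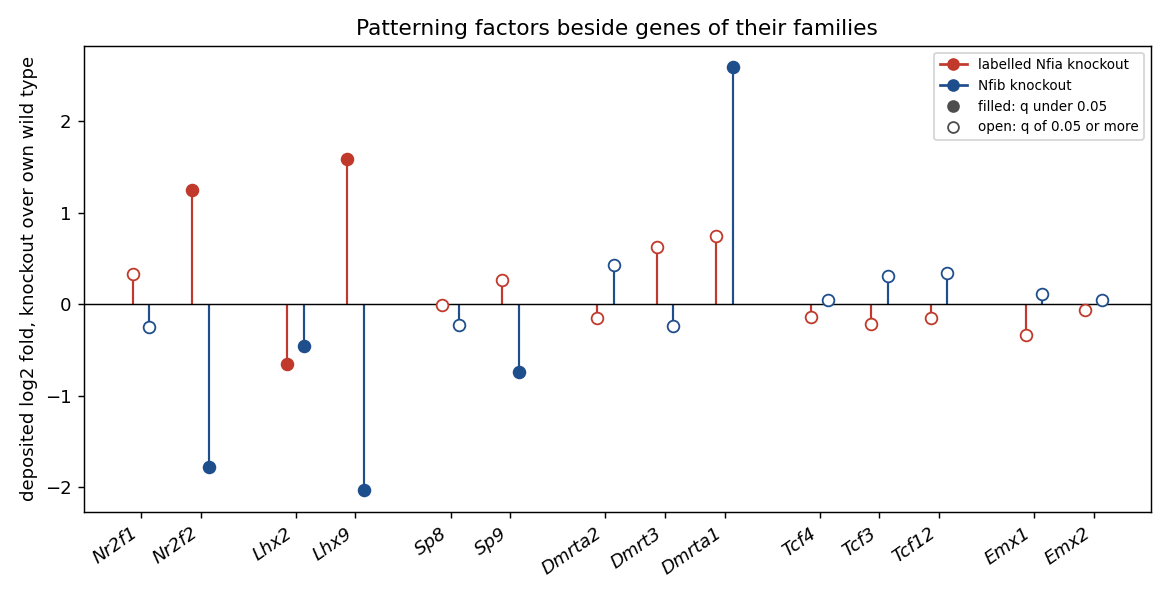
Deposited log2 folds of knockout over own wild type for the 9 genes without Pax6 and Apcdd1 and for relatives in the same families, as stems from 0, filled where q is under 0.05. Lhx9 (1.59 and -2.04) and Nr2f2 (1.26 and -1.78) have folds of opposite sign in the 2 comparisons, signs that turn against the other line's wild types, whereas both Lhx2 stems point down.

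Of the paralogs of the 9 genes, 2 of 10 tested were higher and none lower in the labelled Nfia knockout comparison, namely Lhx9 and Nr2f2. In the Nfib comparison 1 of 11 was higher, Dmrta1, and 3 were lower, Lhx9, Nr2f2 and Sp9. Lhx9, the closest relative of Lhx2, is expressed in the hem region, hippocampal primordium and thalamus. It rose to 1.59 FPKM in the labelled Nfia knockouts, against 0.523 in their wild types, where Lhx2 fell, and fell to 0.842 FPKM in the Nfib knockouts, against 3.50 in theirs, where Lhx2 fell too. The log2 folds were 1.59 (q = 0.00286) and -2.04 (q = 0.00207) by the authors' deposited table, and they differed by -3.63 (adjusted p = 1.06e-05 by the approximate test). Against the other line's wild types both folds of Lhx9 changed sign, to -1.09 and 0.60. Lhx2 exceeded Lhx9 in FPKM 30.2-fold in the labelled Nfia knockouts, against 143-fold in their wild types, and 73.7-fold in the Nfib knockouts, against 24.7-fold in theirs. Thalamus markers other than Lhx2, a list that holds Lhx9, were 2 of 4 higher and none lower in the labelled Nfia knockout comparison, and none of 3 higher and 1 lower in the Nfib comparison. Their summed level was 16.1 FPKM in the labelled Nfia knockouts, against 12.5 in their wild types, and 9.003 in the Nfib knockouts, against 14.7 in theirs, with none at 0. Hippocampal and hem markers, which also include Lhx9, gave 1 of 10 higher and 1 lower, and 0 of 13 higher and 6 lower, with summed levels of 21.2 FPKM in the labelled Nfia knockouts, against 22.6 in their wild types, and 15.9 in the Nfib knockouts, against 40.1 in theirs. Meningeal and fibroblast markers, of the tissue that covers the cortex, gave 0 of 5 called in the labelled Nfia knockout comparison and 0 higher and 6 lower of 9 in the Nfib comparison. Their summed level was 18.7 FPKM in the labelled Nfia knockouts, against 17.3 in their wild types, and 20.4 in the Nfib knockouts, against 31.2 in theirs. The median log2 fold in the Nfib comparison was -0.91 for the hippocampal and -1.33 for the meningeal list, and against the Nfia-line wild types -0.11 and 0.23, so that the meningeal one changed sign. In the labelled Nfia knockout comparison these medians were 0.0050 and -0.049, the meningeal one over only 2 genes at 1 FPKM or more. Against the Nfib-line wild types they came to -0.84 and -0.79. None of these hippocampal or meningeal markers was at 0 in any group, and the part of these tissues in the Lhx2 values was not tested.

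Signals of the patterning centres were read next. Fgf8, the rostral organiser's ligand, was listed at 0 in all 4 groups. Of 12 genes of rostral FGF signalling tested, 1 was higher and 2 lower in the labelled Nfia knockout comparison, and none was called in the Nfib comparison by the authors' q-values. Those lower were the receptor Fgfr1 (18.1 FPKM against 25.2 in the wild types) and the FGF feedback phosphatase Dusp6 (12.3 against 17.4), with q-values of 0.0121 and 0.0248 in the authors' deposited table. The one higher was the ligand Fgf15, at 1.35 FPKM against 0.296 (q = 0.00286 in the authors' deposited table). The hem ligands Wnt3a and Wnt8b were below 1 FPKM in every group and highest in the Nfib-line wild types, at 0.203 and 0.539 FPKM. Wnt3a was tested in neither comparison. Wnt8b was tested in the Nfib comparison only and did not pass (q = 0.430 in the authors' deposited table). Of hem and dorsal midline genes, 0 of 8 were higher and 1 lower in the labelled Nfia knockout comparison, and 0 of 11 higher and 3 lower in the Nfib comparison. Rspo3 was the one lower in the labelled Nfia knockouts, at 8.31 FPKM against 13.1 (q = 0.00286 in the authors' deposited table), and Wnt5a, Rspo2 and Rspo1 fell in the Nfib knockouts, with log2 folds of -1.69, -1.31 and -3.39. Rspo3 came to -0.15 against the other line's wild types, and these 3 to -0.40, -0.61 and -0.53. Antihem genes, from the lateral edge of the cortex, gave 1 of 5 higher, Tgfa (log2 fold 0.54 with q = 0.0235 in the authors' deposited table), in the labelled Nfia knockouts and none lower, and 0 of 5 called in the Nfib knockouts.

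Other factors of dorsal progenitors gave 0 of 13 higher and 3 lower in the labelled Nfia knockout comparison, with a median log2 fold of -0.17, and 1 of 14 higher and 1 lower in the Nfib comparison, with a median of 0.24. Against the other line's wild types these medians came to 0.016 and 0.11. Those lower in the labelled Nfia knockouts were Eomes, Insm1 and Otx1, which the authors' deposited table gives at log2 folds of -0.58, -0.54 and -0.71. Gli3, the Hedgehog-pathway factor of the dorsal telencephalon, rose to 13.1 FPKM in the Nfib knockouts, against 6.71 in their wild types, and Zic2, a zinc-finger factor of the midline, fell to 4.56, against 7.69, but exceeded the Nfia-line wild types, at 3.72. Genes that mark areas in postmitotic neurons gave 2 of 17 higher and 1 lower in the labelled Nfia knockout comparison and 4 of 17 higher and 6 lower in the Nfib comparison. Among these, Rorb, a nuclear receptor of layer 4 and primary sensory areas, fell in the labelled Nfia knockouts to 6.65 FPKM, against 9.71 (q = 0.00505 in the authors' deposited table), but stood at 6.76 in the Nfib-line wild types. Cyp26b1, which degrades retinoic acid, rose to 3.63 FPKM in the labelled Nfia knockouts, against 1.05, and fell to 1.05 in the Nfib knockouts, against 4.51. Its folds against the other line's wild types were -0.30 and -0.0034, so the first changed sign and the second was near 0. Crym fell to 1.59 FPKM in the Nfib knockouts, against 22.5 in their wild types (log2 fold -3.815 with q = 0.00207 in the authors' deposited table). Cdh6, a cadherin with areal expression, rose to 10.7 FPKM in the Nfib knockouts, against 5.08 in their wild types. Against the Nfia-line wild types Crym came to -1.115 and Cdh6 to 0.48.

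The called list genes that the naming rule took were also set against the other line's wild types. Of 19 in the labelled Nfia knockout comparison, 4 changed sign against the other line's wild types and 9 had folds smaller by over 1.5 times. Of 34 in the Nfib comparison with both folds, 7 changed sign and 22 had folds smaller by over 1.5 times. The rule took these genes by q and fold against own wild types, so smaller folds against another reference are expected by that choice alone. Folds against the other line also had 0.1 FPKM added, which shrinks those of low genes. Folds that grew were not counted apart, and no share over all genes was computed.

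Genes whose 4 group averages were most like those of the called genes were taken from 8945 genes at 5 FPKM or more in every group, by the distance between centred log2 profiles over 4 averages. For Pax6 they were Efnb1, an ephrin ligand (distance 0.015), Foxm1, a cell cycle factor (0.032), and Boc, a Hedgehog co-receptor (0.061). For Lhx2 they were Tspan18 (0.12), the guidance cue Sema3c (0.13) and Sfxn5 (0.14). For Apcdd1 they were the imprinted Mest (0.092), Slc44a5 (0.098) and the junction protein Amot (0.13). Efnb1, for example, was at 37.8 FPKM in the labelled Nfia knockouts, against 41.7 in their wild types, and at 54.2 in the Nfib knockouts, against 35.5 in theirs. Sema3c was at 12.2 FPKM in the labelled Nfia knockouts, against 18.6, and at 15.3 in the Nfib knockouts, against 19.5. The distances rest on 4 averages and carry no test.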

How the data were processed

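Values came from 1 table in which, per the file headers, the authors deposited group means of FPKM. For each line it adds a deposited log2 fold (knockout over wild type), its p-value and its q-value. Cuffdiff 2.1.1, Cufflinks, TopHat2 2.0.10 and CASAVA 1.8.2 are listed, and the build mm9, per the submitters' processing notes. Rows with a p under 1 counted as tested; the deposited q-values lie within 7.32e-05 of Benjamini-Hochberg adjusted p-values over these rows. The smallest p is 5e-05. Fold cells with spreadsheet error text, 1354 and 1378, hold no fold and include none of the 9 genes, whose deposited folds lie within 0.031 of the log2 ratio of group averages. Folds between other groups used log2(FPKM + 0.1), so changes of low genes are understated.

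An approximate test compared the folds of both lines over 13554 genes. Each error was lifted to at least the running median of 501 genes of like FPKM, both were combined, and the p-values adjusted by Benjamini-Hochberg. The test was run on simulated folds drawn with these same errors, which cannot show whether the errors are right. It takes the errors implied by the deposited p as true, and the 2 wild-type groups differ. The genes, the 16 lists and their tests were chosen with earlier results of these data known. Named genes were the 9, up to 4 called genes per list and comparison, the NFI genes that check the labels, and 3 like genes per called gene; Axin2, the paralogs that did not pass, Ldb1, Neurod6, Fgf8, Wnt3a, Wnt8b and antisense genes were added as values after theirs were seen. The TTGGC search was also added then. Promoter sequences are of RefSeq, GRCm38.p6, another build than that of the table, so no gene coordinates are given. Software was matplotlib 3.10.9, scipy 1.17.1, pandas 2.3.3, numpy 2.4.6 and Python 3.11.15. Alternatives were other thresholds, pseudocounts, filters, windows and wild types.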

Additional observations from a re-analysis of the deposited data

Results flagged for a closer look

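Pax6 drew attention because its fold differed between the lines: the log2 fold in the Nfib knockouts exceeded that in the labelled Nfia knockouts by 0.81 (adjusted p = 0.00898 by the approximate test over all genes, built on the authors' p-values). No value per library was used, so a library standing apart from its group could not be looked for.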

How the results depend on the processing

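Called genes of the labelled Nfia knockout comparison numbered 2, and 1 (Lhx2) at q 0.01 or with a fold of at least 1.5; the 3 of the Nfib comparison were 2 (Pax6 and Apcdd1) under the same 2 settings, so that Lhx2 was called in both comparisons at neither, and 3 under the others run. Of 90 recomputed folds of single genes 10 moved by more than their approximate error, 8 against the other line's wild types and 2 against the mean of both. Of the 25 of called genes 0 changed sign. Other pseudocounts and subtracting the median of all genes moved no fold beyond its error, so only the changes of wild type could have turned a called sign. Against the other line's wild types, Lhx2 came to -0.84 in the labelled Nfia knockouts and -0.27 in the Nfib knockouts, and Pax6 to 0.36 in the Nfib knockouts; the cause was not tested. The called difference between lines (Pax6) and the wild-type ratio (Nr2f1) were each the only one under every alternative run. No paired analysis was possible because the table holds group averages, and for the same reason leaving out each replicate was not run. Depth is unknown, and Sp8, the lowest gene, had the largest approximate error in both comparisons.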
